A study of Mus with 96 samples.

Results

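Livers taken at ZT6, 6 h after lights on, were compared between mice with and without the clock gene Bmal1 in hepatocytes, on normal chow (NC). The comparison used 8 of the 96 libraries of the series, chosen by their sample titles: 4 from Hep-Bmal1KO mice and 4 from Hep-Bmal1WT littermates, each library from a different mouse. All mice carried Bmal1 flx/flx, and Hep-Bmal1KO mice also carried 1 Alb-Cre allele, a transgene in which the albumin promoter drives the recombinase in hepatocytes. Cells of a whole liver outside the hepatocyte lineage can therefore keep Bmal1, and recombination was not measured here. Mice were 8 to 10 weeks old, had eaten NC for 2 weeks, lived under 12 h of light and 12 h of dark, and came to 2 males and 2 females per genotype. The rest of the series holds NC livers at 5 other times (40 libraries) and livers of mice fed cdHFD, a high-fat diet poor in choline, at the same 6 times (8 of them at ZT6).

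BMAL1, encoded by Arntl, pairs with CLOCK or NPAS2 and drives genes with E-box elements, among them those of the Period and Cryptochrome repressors, the REV-ERB receptors (Nr1d1, Nr1d2) and the output factor DBP. REV-ERBs in turn repress genes with ROR elements, such as Arntl itself, Npas2, Cry1 and Nfil3. In the liver, around the middle of the light phase, REV-ERB expression is high, and these factors are known to time genes of cholesterol, bile acid, fatty acid, glucose and xenobiotic metabolism.

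RNA was measured by BRB-seq, a bulk method that reads the 3′ ends of mRNAs. Counts assigned to genes ran from 5135157 to 9095237 per library, with 24.87% to 27.16% of counts not on a gene, 6.078% to 7.208% of counts on mitochondrial genes, and 14475 to 15601 genes detected. Levels are given in CPM, a gene's counts relative to its library's total, scaled by trimmed mean of M-values (TMM) over the series. Libraries are called WT1 to WT4 and KO1 to KO4, in the order of ascending mouse number within each label. WT1, WT4, KO1 and KO4 came from females, and WT2, WT3, KO2 and KO3 from males. Genes of the X and Y chromosomes matched the labelled sex in 8 of 8. By their library names, the Hep-Bmal1WT libraries stood in plate column 1 and the Hep-Bmal1KO libraries in plate column 7, so genotype and plate column cannot be told apart.

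Arntl itself, at chr7:113178471-113314126 on mm10, measured 3.30, 4.63, 9.27 and 5.83 CPM in WT1 to WT4 and 11.1, 6.37, 5.20 and 1.21 CPM in KO1 to KO4. The lowest and highest values were both in the Hep-Bmal1KO group, and the genotypes overlapped. These 3′ counts do not test the deletion, since the floxed part lies away from the 3′ end and the shortened transcript can still be counted. The labels were instead checked on the genes downstream of BMAL1. On a scale where 0 and 1 are the medians of the other Hep-Bmal1WT and Hep-Bmal1KO libraries of the same time, 16 clock genes placed WT1, WT2 and WT4 at -0.258, 0.214 and -0.228, and KO1, KO2 and KO3 at 0.992, 1.01 and 1.11. The library labelled WT3 lay at 1.05 and the library labelled KO4 at -0.15. A separate set of 20 genes outside the clock lists, chosen at the other 5 times without any of these 8 libraries, placed WT3 at 1.02 and KO4 at -0.113. WT3 thus resembled the knockouts and KO4 the controls, in both sets, while the sexes of both matched their labels. Among the 48 NC libraries 4 lay nearer the other label in both sets, and among the 8 cdHFD libraries at ZT6 none did. By the clock genes alone, Hep-Bmal1WT replicates 3 and 4 of NC at ZT22 also did, at 0.723 and 0.583. By the 20 genes alone, Hep-Bmal1WT replicate 3 of cdHFD at ZT6 did, at 0.614. Counts of calls are therefore given for the 8 libraries as labelled (4 against 4) and for the 6 without WT3 and KO4 (3 against 3), and gene values mostly for the 6, with those over 8 beside the main ones. The 6 were fixed beforehand, because the expression of WT3 and KO4 resembled the other label. The 16 clock genes and the 20 others of this label check describe that resemblance. Among the 20 were Lpl, Hectd2os, Gstm2, Gstm6, Cyp2c29, Cyp2c55, Tm7sf2 and Acaa1a. Calls among the 6 describe these 6 mice. Because WT3 and KO4 were left out for this resemblance, calls over the 6 are a description for every gene and support nothing. Clock genes and the 20 others, in which the resemblance is shown, also count in the totals and lists.

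**Figure D1:**
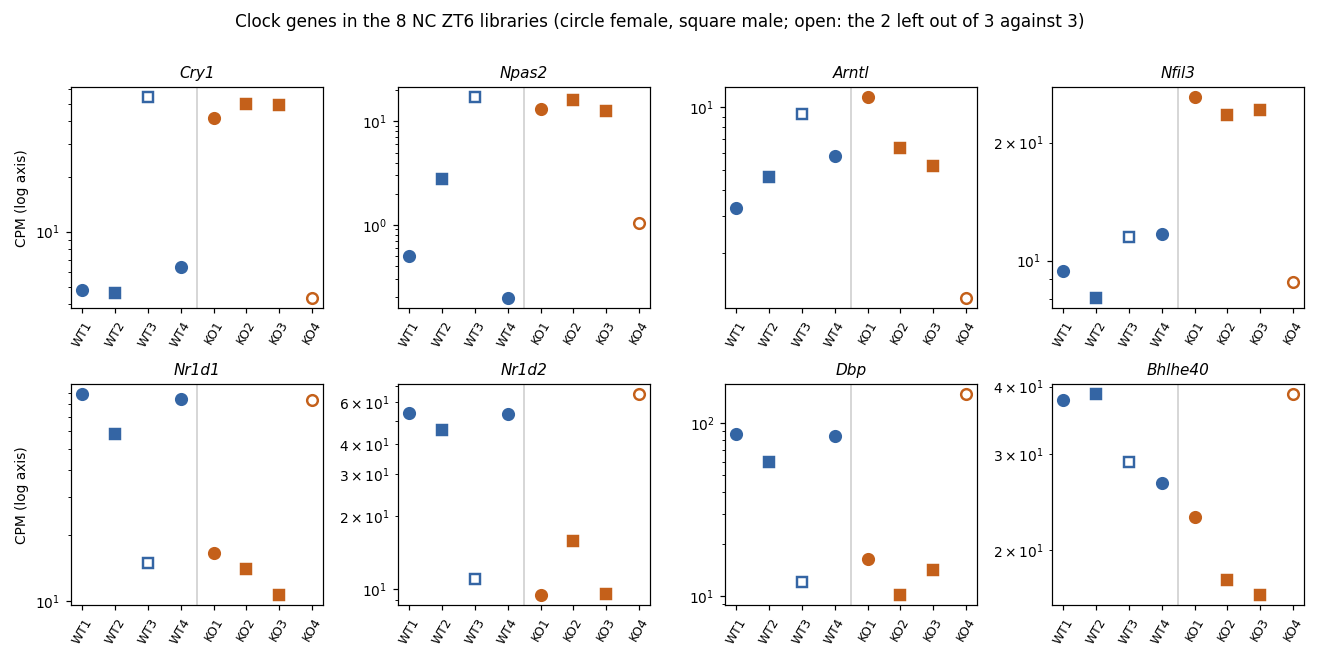
Levels of 8 clock genes (CPM, log axis) in WT1 to WT4 (blue) and KO1 to KO4 (orange), with circles for females, squares for males and open symbols for the libraries labelled WT3 and KO4. For Cry1, Npas2, Nr1d1, Nr1d2 and Dbp, WT3 sits with or next to the other Hep-Bmal1KO points and KO4 with or next to the Hep-Bmal1WT points.

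With all 8 libraries and sex as a covariate, edgeR's quasi-likelihood test called 0 of 15548 genes at an adjusted p under 0.05 (0%), in either direction. The smallest adjusted p was 0.307, and 1415 genes (9.1%) had an unadjusted p under 0.05. DESeq2 called 66 genes, 56 higher and 10 lower in Hep-Bmal1KO livers. In 357 genes (2.3%) every library labelled Hep-Bmal1KO lay above every one labelled Hep-Bmal1WT, and in 341 (2.19%) every one lay below.

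A few metabolic genes were separated by label with all 8 livers in place. Oat, ornithine aminotransferase, at chr7:132557475-132576398, measured 682, 559, 759.7 and 443 CPM in WT1 to WT4 and 1866, 1837, 1143 and 764 CPM in KO1 to KO4. The groups did not overlap, although KO4 was barely above WT3, and the log2 fold change over 8 libraries was 1.21 ± 0.24 (unadjusted p = 1.05e-04, adjusted p = 0.307). Hpd, the 4-hydroxyphenylpyruvate dioxygenase of tyrosine breakdown, ran from 1289 to 1954 CPM in the Hep-Bmal1WT and from 2230.1 to 3279.9 CPM in the Hep-Bmal1KO libraries. Gpt, alanine aminotransferase, was also higher in each Hep-Bmal1KO library. So were Cyp27a1 of bile acid synthesis, Tm7sf2 and Ebp of cholesterol synthesis, Acacb (acetyl-CoA carboxylase 2), Haao of the kynurenine route and the drug-metabolizing Cyp1a2, Cyp3a25 and Sult1d1. None of these differences passed the adjusted threshold over all 8 libraries.

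Without WT3 and KO4, 762 of 15548 genes passed an adjusted p of 0.05 (4.9%), 399 higher (2.57%) and 363 lower (2.33%) in Hep-Bmal1KO livers, and 2302 genes (14.8%) had an unadjusted p under 0.05. Without WT2 the count was 411, and without KO2 it was 428. DESeq2 called 418 genes (255 higher, 163 lower), and a filter that asks for 10 counts in 3 libraries left 418 (235 higher, 183 lower), 417 of them shared with the 762. In the fit without a sex term 268 genes passed. Of the 762 genes, 344 differed at least 2-fold, and 753 had the same sign in the 8 libraries, 422 of those with an unadjusted p under 0.05. WT3 lay nearer the mean of KO1 to KO3 in 554 of the 762 genes (72.7%), and KO4 nearer the mean of the other controls in 600 (78.7%). Both held in 464 (60.9%, against 30.2% of all genes). The 2 libraries were left out for resembling the other label, so high shares were set in advance and support nothing. The median log2 fold change of all genes was -0.01 over 8 and -0.02 over 6 libraries. Unless stated otherwise, fold changes below are log2 values of Hep-Bmal1KO over Hep-Bmal1WT from the 6 libraries, with their standard error (SE) and edgeR's adjusted p over all genes.

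**Figure D2:**
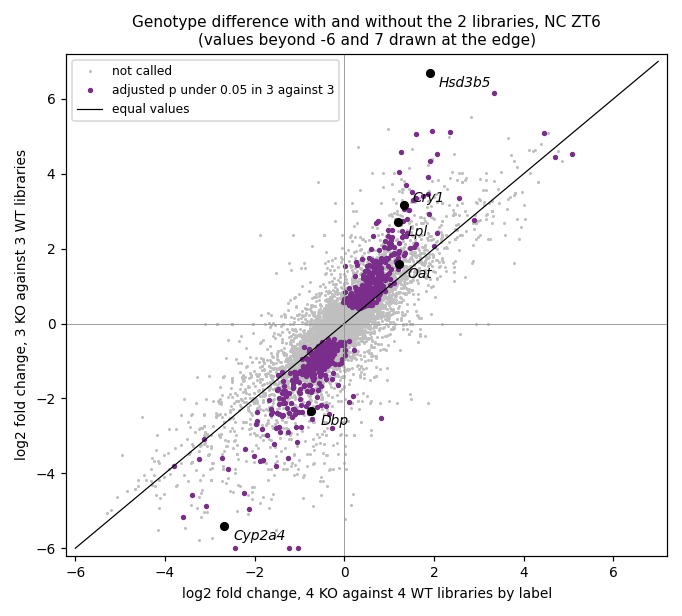
Log2 fold change, Hep-Bmal1KO over Hep-Bmal1WT, of each gene over the 8 libraries (horizontal) and over the 6 without WT3 and KO4 (vertical), with the genes called over the 6 in color. Of the called genes 753 of 762 have the same sign on both axes, and most lie closer to 0 on the horizontal axis, as for Cry1, at 1.33 over 8 and 3.16 over 6 libraries.

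Among the clock genes, several repressed by REV-ERB were higher and several E-box genes lower in KO1 to KO3. Cry1, at chr10:85131700-85185054, measured 4.78, 4.63, 54.2 and 6.41 CPM in WT1 to WT4 and 41.8, 50.1, 49.5 and 4.32 CPM in KO1 to KO4. WT3 was the highest library of all 8 and KO4 the lowest, and the log2 fold change was 3.16 ± 0.21 over 6 libraries and 1.33 ± 0.60 over 8. Npas2, the CLOCK paralog, measured 0.494, 2.76, 17.1 and 0.194 CPM in WT1 to WT4 and 13.2, 16.2, 12.7 and 1.04 CPM in KO1 to KO4. For Nfil3, a repressor of D-box genes, only KO4 resembled the other label. WT3 stayed at 11.5 CPM among the controls, while KO4 lay at 8.82 CPM and KO1 to KO3 between 23.6 and 26.1 CPM.

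Nr1d1, which encodes REV-ERBα, at chr11:98767932-98775377, measured 88.8, 58.1, 14.9 and 84.7 CPM in WT1 to WT4 and 16.5, 13.96, 10.6 and 84.01 CPM in KO1 to KO4. Its level in WT3 was that of the 3 knockouts, and its level in KO4 that of the controls, with a log2 fold change of -2.29 ± 0.17 over 6 and -1.14 ± 0.41 over 8 libraries. Nr1d2, its paralog, differed by -2.12 ± 0.20 and Dbp, at chr7:45705100-45710203, by -2.33 ± 0.17 over 6 libraries, against -0.82 ± 0.45 and -0.74 ± 0.53 over 8. Dbp reached 147 CPM in KO4, above each Hep-Bmal1WT library. Bhlhe40 and Ciart encode a pair of repressors of BMAL1 and CLOCK. Bhlhe40 had a log2 fold change of -0.83 ± 0.18, and Ciart lay at only 0 to 7.78 CPM. Log2 fold changes of the 3 Period genes were -0.07 ± 0.38 for Per1, 0.04 ± 0.35 for Per2 and -0.93 ± 0.43 for Per3, and those of Clock, Tef and Hlf were 0.28 ± 0.18, -0.10 ± 0.16 and -0.10 ± 0.20.

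Genes outside the clock lists showed contrasts of the same size. The rule for naming genes took, per direction, the 10 with the smallest p among those changed at least 2-fold. Besides Cry1, those reported higher were the antisense RNA Hectd2os, the glutathione transferases Gstm2 and Gstm6, the neurotrophin receptor Ntrk2, the receptor kinase Grk5, the lipoprotein lipase Lpl, and the male-biased Hsd3b5 and Mup20. Lower were Nr1d1, Nr1d2, Dbp, the female-biased Cyp2a4 and Sult2a2, the glutathione transferase Gsta1, the lipase Abhd2, the carboxylesterase Ces1b and albumin (Alb). Ntrk2, at chr13:58806472-59133970, measured 3.30, 1.63, 32.1 and 6.80 CPM in WT1 to WT4 and 59.2, 34.3, 41.8 and 5.53 CPM in KO1 to KO4, with a log2 fold change of 3.92 ± 0.24 (adjusted p = 1.14e-14). Grk5 rose by 3.42 ± 0.22 (adjusted p = 3.45e-14). Over all 8 libraries the values of Ntrk2 and Grk5 were 1.87 ± 0.67 and 1.75 ± 0.58. Hectd2os, one of the 20 genes of the label check, had a log2 fold change of 3.51 ± 0.17. The sources do not state whether counting used the strand, so that reads of Hectd2os and of its partner on the other strand cannot be told apart. In all 3 genes WT3 lay above the range of KO1 to KO3 or just under it, and KO4 lay within the range of the 3 controls or just above it. Of the genes named in this way, Sult2a2 lost its call without KO1, and the others stayed called without each of the 6 libraries in turn.

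Lpl, which frees fatty acids from circulating triglycerides and is low in adult hepatocytes, at chr8:68880555-68906932, measured 28.7, 74.8, 539.8 and 65.7 CPM in WT1 to WT4 and 331, 467, 419 and 17.1 CPM in KO1 to KO4. KO1 to KO3 were above WT1, WT2 and WT4 by a log2 value of 2.704 ± 0.19, a description, since Lpl was among the genes behind the choice of the 6. Alb, at chr5:90460870-90476602, took 148451, 100818, 49014 and 125145 CPM in WT1 to WT4 and 65361, 50844, 42268 and 150291 CPM in KO1 to KO4. It fell by 1.07 ± 0.11 over 6 libraries (adjusted p = 2.99e-09), against -0.51 ± 0.23 over 8, and the groups of 3 did not overlap. Abhd2 fell by 1.81 ± 0.17 and was lower in each of KO1 to KO4 than in WT1, WT2 and WT4, so that KO4 resembled the controls less there than in the clock genes.

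Genes of metabolism are given next by function, each list with its counts over the 6 libraries, to be read beside the 2.57% higher and 2.33% lower of all genes. The cholesterol synthesis genes that passed were all higher in KO1 to KO3. Of 20 genes tested, 9 rose and none fell, with a median log2 fold change of 0.54, against 0.25 over all 8 libraries. They were Acat2, Fdps, Lss, Tm7sf2, Msmo1, Dhcr7, Pmvk, Nsdhl and Mvk, from the first condensation of acetyl-CoA units to the last reductions of the sterol ring. Acat2 measured 125, 139, 180.1 and 84.1 CPM in WT1 to WT4 and 171, 236, 253 and 151 CPM in KO1 to KO4 and rose by 0.78 ± 0.15 (adjusted p = 4.94e-04). The 3 controls lay below all 4 libraries labelled Hep-Bmal1KO, and WT3 lay between KO1 and KO2. Fdps, farnesyl diphosphate synthase, measured 348, 232, 499 and 228 CPM in WT1 to WT4 and 384, 485, 482 and 333 CPM in KO1 to KO4 and rose by 0.75 ± 0.16 (adjusted p = 0.00194). With the stricter filter on low counts only Acat2 and Fdps passed, and without WT2 only Acat2. Of the 20, 2 passed without KO2 and 11 without KO1. Over all 8 libraries the values of Acat2 and Fdps were 0.63 ± 0.15 and 0.37 ± 0.20. Insig2, which holds SREBP in the endoplasmic reticulum, measured 214, 211, 417 and 122 CPM in WT1 to WT4 and 411, 366, 455 and 119 CPM in KO1 to KO4 and rose by 1.14 ± 0.16 (adjusted p = 2.94e-06), a call kept without each of the 6 libraries.

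Bile acid genes followed in the same direction, with 4 of 17 higher and none lower. Cyp7b1, the oxysterol hydroxylase of the acidic pathway, at chr3:18071944-18243890, measured 19.3, 25.8, 205 and 20.6 CPM in WT1 to WT4 and 40.2, 270.0, 299.6 and 26.1 CPM in KO1 to KO4. It is male-biased, and the male controls WT2 and WT3 differed about as much as the genotypes did, while the female KO1 was above both female controls. Its log2 fold change was 2.32 ± 0.29 (adjusted p = 3.04e-07), and it was 1.03 without WT2, 3.48 without KO1 and 1.06 ± 0.40 over all 8 libraries. Cyp8b1, which sets the share of cholic acid, rose by 0.72 ± 0.19, Cyp27a1 by 0.50 ± 0.14 and the uptake carrier Slco1b2 by 0.55 ± 0.16. Of these 4, only Cyp7b1 passed with the stricter filter. Abcg5, which exports sterols into bile, rose by 0.50 ± 0.15 (adjusted p = 0.046), the only one of 9 sterol efflux genes to pass. Cyp27a1, Slco1b2 and Abcg5 were not called without WT2, nor Cyp8b1 without KO1, where its value was 0.27.

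In the fatty acid synthesis list, 6 of 16 genes rose and 3 fell, and the median was -0.06, against 0.24 over all 8 libraries. Those that rose were Acss2 (acetyl-CoA synthetase), Acly (ATP citrate lyase), both acetyl-CoA carboxylases Acaca and Acacb, the elongase Elovl3 and the desaturase Scd2. Acss2 measured 192, 174, 352 and 90.5 CPM in WT1 to WT4 and 265, 396, 336 and 154 CPM in KO1 to KO4. WT3 was again among the knockouts and KO4 among the controls, and the log2 fold change was 1.005 ± 0.17 (adjusted p = 1.26e-04). Acacb, whose product malonyl-CoA restrains fatty acid entry into mitochondria, measured 19.8, 13.7, 14.5 and 10.49 CPM in WT1 to WT4 and 31.2, 27.6, 25.3 and 21.3 CPM in KO1 to KO4, with 1.01 ± 0.20 over 6 and 0.86 ± 0.20 over 8 libraries. Elovl3 is strongly male-biased, at 5.83 and 12.03 CPM in the female controls, 33.3 CPM in the female KO1, 53.9 CPM in WT2 and 889.7 and 1243 CPM in KO2 and KO3. The genes that fell were Scd1, Elovl2 and Fads2, and none of these 3 passed with the stricter filter. Without WT2 the calls of Acly, Acaca, Scd2, Elovl2 and Fads2 were lost, and Elovl3 went from 3.29 to 1.89. Acss2, Acacb, Elovl3 and Scd1 stayed called without each of the 6 libraries. In the list of triglyceride synthesis and VLDL assembly, 0 of 19 genes passed in edgeR or in DESeq2, and 5 had an unadjusted p under 0.05 in edgeR.

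Fatty acid oxidation genes that passed were mostly lower. Of 26 genes, 8 fell and 1 rose, with a median log2 fold change of -0.36, against -0.04 over all 8 libraries. Cyp4a10, an ω-hydroxylase and PPARα target, measured 648, 369.7, 169 and 536 CPM in WT1 to WT4 and 325, 204, 115 and 1007 CPM in KO1 to KO4 and fell by 1.02 ± 0.16 (adjusted p = 1.79e-05). KO4 was the highest of all 8 and WT3 lay with the male knockouts. Cpt1a, the gate of mitochondrial fatty acid entry, measured 232, 236, 138 and 227 CPM in WT1 to WT4 and 148, 149.9, 142 and 163 CPM in KO1 to KO4, where KO4 lay with the other libraries of its label. Its log2 fold change was -0.65 ± 0.13 over 6 and -0.45 ± 0.16 over 8 libraries. The others that fell were Ppara, Acot1, Acot2, Acaa1a, Acaa1b and Fgf21. Pdk4, which shuts off pyruvate oxidation, was called higher at 0.583 to 1.25 CPM in 3 controls and 2.41 to 5.05 CPM in 3 knockouts. The stricter filter kept 4 of the lower calls and the 1 higher, and the fit without a sex term kept 2 lower and none higher. Of the 9 genes only Cyp4a10 stayed called without each of the 6 libraries. Of the lower calls, 2 were left without WT2, and Pdk4 was not called without KO1.

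**Figure D3:**
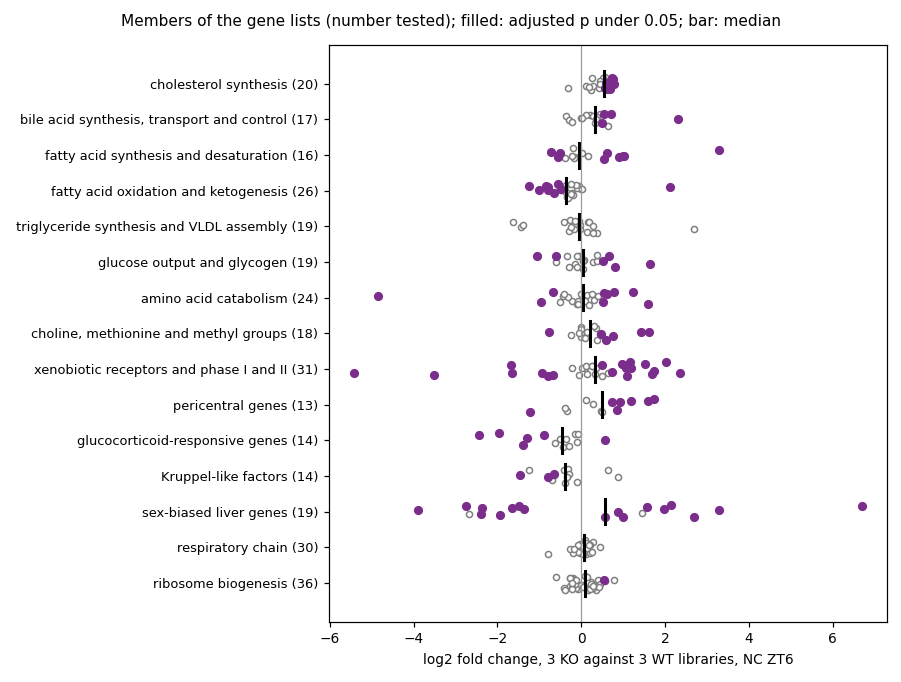
Log2 fold change over the 6 libraries (horizontal axis, Hep-Bmal1KO over Hep-Bmal1WT) of each member of the gene lists, 1 row per list with the number of genes tested. Filled points passed an adjusted p of 0.05 and the bar is the median, which is 0.54 for cholesterol synthesis and -0.36 for fatty acid oxidation.

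Genes of glucose output and glycogen split by step. Of 19 genes, 4 rose and 2 fell, with a median of 0.04. G6pc, glucose-6-phosphatase, measured 107, 71.9, 127 and 61.8 CPM in WT1 to WT4 and 178, 267, 378 and 71.6 CPM in KO1 to KO4 and rose by 1.64 ± 0.20 (adjusted p = 2.55e-07). Here WT3 stayed near the controls, and KO4 did too. Gys2, glycogen synthase, measured 141, 133, 89.1 and 139 CPM in WT1 to WT4 and 55.9, 66.2, 84.8 and 156 CPM in KO1 to KO4 and fell by 1.05 ± 0.15 (adjusted p = 7.99e-06), with WT3 just above KO3. Pygl (glycogen phosphorylase), Ugp2 and Pfkfb1 rose by 0.52, 0.65 and 0.81. Without WT2 these 3 calls were lost. Over all 8 libraries G6pc and Gys2 had 1.15 ± 0.30 and -0.47 ± 0.23. Of 11 genes of the CHREBP and sugar-responsive list 2 fell and none rose. Gpd1, which links glycolysis to glycerol, fell by 0.84 ± 0.14 and Klf10 fell by 1.45 ± 0.22. Khk, fructokinase, was in that list and did not pass, at 379, 310.1, 299 and 272 CPM in WT1 to WT4 and 336, 335, 391 and 507 CPM in KO1 to KO4 and a log2 fold change of 0.15 ± 0.14 (adjusted p = 0.735). In the insulin list, Trib3, an inhibitor of AKT, fell by 2.80 ± 0.32 (adjusted p = 6.88e-08), from 9.14 to 21.8 CPM in 3 controls to 1.38 to 2.44 CPM in 3 knockouts, Igfbp2 fell by 0.68 ± 0.14 and Irs2 was called higher by 1.29 ± 0.37. Without WT2 neither Igfbp2 nor Irs2 was called, and Irs2 went to 0.0036, while without KO1 it stood at 3.07. G6pc, Gys2, Gpd1, Klf10 and Trib3 stayed called without each of the 6 libraries.

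Of 24 amino acid catabolism genes 6 rose and 3 fell. Oat rose by 1.59 ± 0.16 (adjusted p = 2.47e-09) and Prodh, which begins proline breakdown, by 1.22 ± 0.16 (adjusted p = 1.67e-06). Prodh measured 55.03, 36.4, 86.3 and 41.8 CPM in WT1 to WT4 and 93.8, 115, 85.9 and 48.6 CPM in KO1 to KO4. Again WT3 lay at the level of KO1 to KO3 and KO4 among the controls. Hpd rose by 0.61 ± 0.13, Got1 by 0.77 ± 0.19, Gpt by 0.54 ± 0.14 and Agxt by 0.51 ± 0.14. The serine dehydratases Sds and Sdsl and the asparagine synthetase Asns were called lower, and in all 3 WT2 was the highest library, Asns at 20.04 CPM against 0 to 2.53 CPM in the other 7. No lower call was left without WT2, where 7 genes of the list rose. Without KO1, 2 rose and 5 fell, and the calls of Hpd, Got1, Gpt and Agxt were lost, with values of 0.39, 0.17, 0.26 and 0.09. Oat and Prodh stayed called without each of the 6 libraries, and Prodh had 0.65 ± 0.24 over all 8.

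Among the genes of choline, methionine and methyl groups, 5 of 18 rose and 1 fell. Bhmt, which uses betaine to remake methionine, measured 1854, 1293, 3595 and 928 CPM in WT1 to WT4 and 3545, 3627, 3568 and 1458 CPM in KO1 to KO4. It rose by 1.43 ± 0.16 (adjusted p = 3.49e-08), WT3 standing at the level of KO1 to KO3 and KO4 among the controls. The choline kinase Chka rose by 0.76 ± 0.16, Dmgdh by 0.58 ± 0.14 and Bhmt2 by 0.48 ± 0.14. Chdh, which oxidizes choline to betaine, fell by 0.77 ± 0.15 (adjusted p = 5.31e-04). Of 16 genes of NAD synthesis and use, Nmnat3, Haao and Kynu rose and none fell. Bhmt stayed called without each of the 6 libraries and had 0.72 ± 0.30 over all 8. Bhmt2, Chdh, Nmnat3 and Haao were not called without WT2, nor Chka, Dmgdh and Kynu without KO1, where Chka had 0.45 and Kynu 0.30.

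Of 31 xenobiotic genes 12 rose and 7 fell, with a median of 0.34, against 0.20 over all 8 libraries. Gstm2, at chr3:107981702-107986420, measured 101, 98.4, 372 and 91.9 CPM in WT1 to WT4 and 511, 535, 403 and 124 CPM in KO1 to KO4 with a log2 fold change of 2.34 ± 0.14 over 6 and 1.37 ± 0.38 over 8 libraries. Gstm6, which lies near it at chr3:107938847-107953641 and was not in the list, had 1.82 ± 0.14. Both were among the genes behind the choice of the 6, as were Cyp2c29 and Cyp2c55. Gstm1 and Gstm3 rose by 0.98 ± 0.14 and 1.68 ± 0.23. These paralogs are similar, and how reads shared between them were counted is not stated. Of the cytochromes, Cyp2c29 had 1.09 ± 0.14 and Cyp2c55 2.02 ± 0.33, Cyp2c55 going to 0.44 without KO1. Cyp2c37 rose by 1.72 ± 0.28, Cyp1a2 by 1.18 ± 0.23 and Cyp2e1 by 0.72 ± 0.19. Cyp2c37, Cyp1a2 and Cyp2e1 were lowest in WT2, at 118, 241 and 1148 CPM. Without it their values were 0.94, 0.55 and 0.29, and only Cyp2c37 stayed called. Cyp1a2 and Cyp2e1 did not pass with the stricter filter.

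Lower in the 3 knockouts were Cyp2a4, Cyp2a5, Cyp2b9, Gsta1, Gsta2, the sulfotransferase Sult1a1 and Por, the reductase that feeds electrons to all microsomal P450 enzymes. Cyp2a5, a coumarin hydroxylase, measured 446, 858, 188 and 322 CPM in WT1 to WT4 and 193, 216, 117 and 954 CPM in KO1 to KO4 and fell by 1.67 ± 0.20 (adjusted p = 9.08e-08), with -0.97 without WT2. Por measured 212, 299, 111 and 248 CPM in WT1 to WT4 and 204, 121, 139 and 338 CPM in KO1 to KO4 and was called lower, at -0.67 ± 0.16 (adjusted p = 0.00585). Without WT2 the value of Por was -0.15 (adjusted p = 0.899) and without KO1 it was -1.18. With the stricter filter 6 of the 31 rose and 4 fell. Of 10 NRF2 antioxidant genes 0 passed in edgeR or in DESeq2, and 1 had an unadjusted p under 0.05 in edgeR. Among carboxylesterases, 3 of 14 rose (Ces2c, Ces2e, Ces3a) and 3 fell (Ces1b, Ces1d, Ces1e). Ces1b measured 102, 74.6, 14.9 and 95.2 CPM in WT1 to WT4 and 40.2, 19.99, 16.1 and 93.7 CPM in KO1 to KO4 and fell by 1.64 ± 0.16 (adjusted p = 2.47e-09). Without WT2 the calls of Cyp2b9, Gsta2, Sult1a1, Por, Ces2e, Ces3a, Ces1d and Ces1e were lost, and Cyp2b9 went from -1.66 to -0.018. Cyp2a4, Cyp2a5, Gsta1, Ces1b and Ces2c stayed called without each of the 6 libraries.

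Of 19 genes that differ between male and female livers, 9 were called higher and 8 lower. In mouse liver the pulse pattern of growth hormone sets these genes, partly through STAT5 and the repressor CUX2. Among the 6 libraries WT2 was the only male control and KO1 the only female knockout, so that each sex was compared through a single library on one side. Without the sex term in the model, 2 genes rose and 1 fell. Hsd3b5, a male steroid dehydrogenase, at chr3:98618636-98645534, measured 1.81, 1.13, 332 and 1.36 CPM in WT1 to WT4 and 26.1, 371, 509 and 0.691 CPM in KO1 to KO4. The male WT2 had 1.13 CPM, a female level, while 10 Hep-Bmal1WT males at the other NC times ran from 71.29 to 319.5 CPM with a median of 214.4 CPM, leaving out the 2 libraries of those times that lay nearer the other label. The female KO1, at 26.1 CPM, lay within the 3.008 to 50.15 CPM of Hep-Bmal1KO females at the other times. Hep-Bmal1WT females at those times ran from 0.5247 to 3.324 CPM. WT2 also had 4254 CPM of Mup20 and 25.8 CPM of Cyp7b1, where the other males of its genotype had at least 17320 and 129.4 CPM.

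The female-biased genes mirrored this. Cyp2a4, a testosterone hydroxylase, at chr7:26307192-26315088, measured 600.3, 271, 2.20 and 1016 CPM in WT1 to WT4 and 29.2, 2.41, 3.84 and 859 CPM in KO1 to KO4. WT2 had 271 CPM, where 10 Hep-Bmal1WT males at the other times had 1.143 to 29.83 CPM, and the female KO1 had 29.2 CPM, where Hep-Bmal1WT females had 392.1 to 1883 CPM and Hep-Bmal1KO females 33.35 to 197.9 CPM. The log2 fold change of Cyp2a4 was -5.42 ± 0.24 (adjusted p = 6.58e-19), and its reads may be shared with the near-identical Cyp2a5. Sult2a1, a sulfotransferase, measured 166 and 136 CPM in the female controls, 36.7 CPM in KO1 and 326 CPM in KO4. KO1 was thus lower than each other female in Sult2a1, Sult2a2 and Cyp17a1, and the males were near 0 in Sult2a1 and Sult2a2. Without KO1 the list had 10 genes higher and 4 lower, and without WT2 4 higher and 8 lower. Sult2a1 and Sult2a2 were not called without KO1. The male-biased Cyp4a12b and Mup3, called higher at 1.57 and 0.87, changed sign without WT2, to -1.865 and -0.025 (adjusted p = 0.421 and 1, edgeR). Hsd3b5 had 6.69 ± 0.44 over 6 libraries and 4.02 without WT2.

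**Figure D4:**
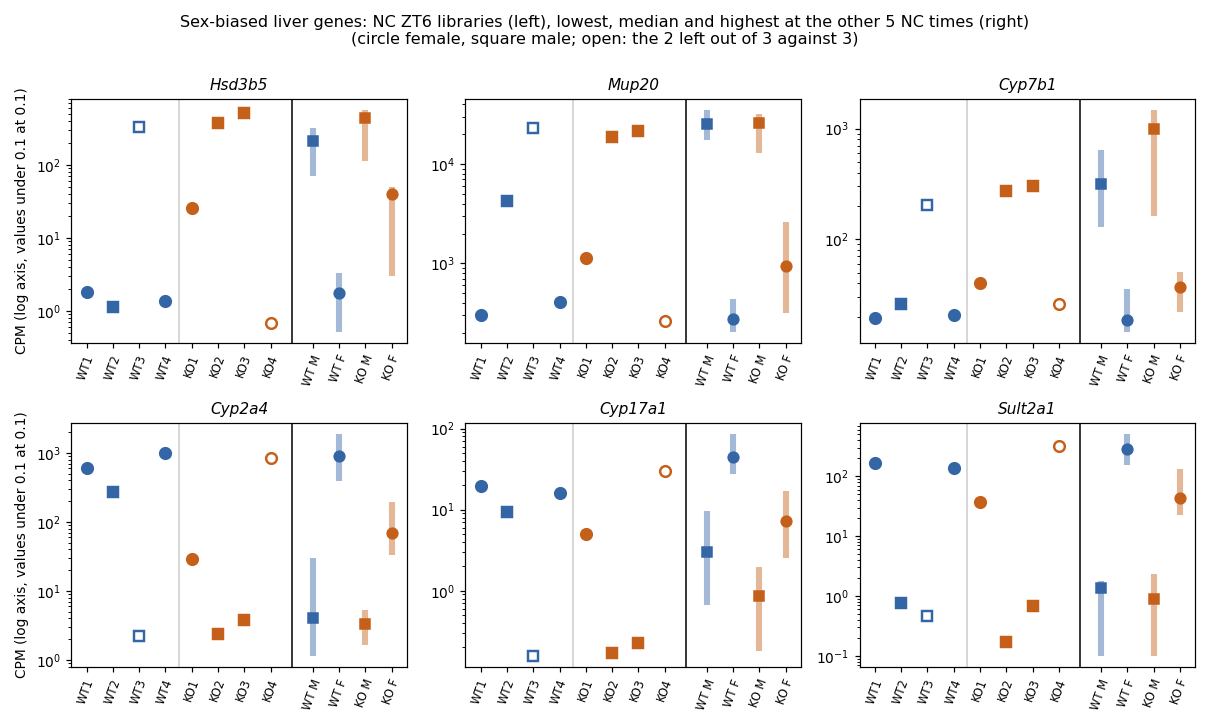
Levels (CPM, log axis) of 6 sex-biased genes in WT1 to WT4 (blue) and KO1 to KO4 (orange), with circles for females, squares for males and open symbols for WT3 and KO4. To the right of the black line, bars run from the lowest to the highest library of each genotype and sex at the other 5 NC times and symbols mark the median. The male WT2 sits at the female level of Hsd3b5, at 1.13 CPM, and the female KO1 between the sexes for Cyp2a4, at 29.2 CPM.

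Zonation genes and cell type markers were read beside these lists. Of 13 pericentral genes 6 rose and Tbx3 fell, and of 12 periportal genes 1 rose and 3 fell. Glul, glutamine synthetase of the last pericentral cell layer, measured 342, 75.1, 192 and 135 CPM in WT1 to WT4 and 238, 270.0, 263 and 399.6 CPM in KO1 to KO4 and was called higher by 0.92 ± 0.27 (adjusted p = 0.0385). WT2 was again the lowest library. Without it Glul had 0.015 and was not called, and 3 pericentral genes rose and none fell. Nor was Glul called with the stricter filter (adjusted p = 0.261). The summed level of 7 hepatocyte markers was 221000, 166500, 120600 and 194700 CPM in WT1 to WT4 and 130600, 124600, 121300 and 220100 CPM in KO1 to KO4. Over all 8 libraries the groups overlapped (exact permutation p = 0.429, two-sided), while WT1, WT2 and WT4 lay above KO1 to KO3 (exact permutation p = 0.1, the smallest that 3 against 3 allows). Without Alb the sums were 72530, 65700, 71600 and 69530 CPM in WT1 to WT4 and 65200, 73750, 79070 and 69860 CPM in KO1 to KO4, which overlapped in the 6 libraries as well (exact permutation p = 0.5). Alb was the one marker called lower, and Serpina1c was called higher, though not without WT2. In bulk tissue, fewer cells of a type and less RNA per cell cannot be told apart.

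Markers of the other cells of the liver had few calls. Sums over 12 Kupffer cell genes ran from 414 to 764 CPM in Hep-Bmal1WT and from 288 to 858 CPM in Hep-Bmal1KO libraries (exact permutation p = 0.743 over 8 libraries), and edgeR called 0 of 12, with 0 at an unadjusted p under 0.05. Endothelial sums ran from 308 to 410 CPM and 321 to 467 CPM (p = 0.914, exact permutation test) and stellate cell sums from 433 to 581 CPM and 409 to 531 CPM (p = 0.286, exact permutation test), with 1 gene called lower in each list. Bile duct, lymphocyte, neutrophil and erythroid markers had no call among 7, 12, 5 and 6 genes tested. Their median log2 fold changes over the 6 libraries were 0.77, -0.66, -0.56 and -0.18, and over 8 libraries the sums had exact permutation p of 0.857, 0.229, 0.343 and 0.657. Pancreas markers were higher in KO2 and KO3, at 81.3 and 76.9 CPM against 21.92 to 41.03 CPM in the other 6. Nearly all of this was Cela1, and 2 of the 9 pancreas markers tested were at 0 in all 8 libraries. KO2 also had the highest sum of adipocyte markers, at 27.2 CPM against 3.83 to 11.2 CPM, of which Cfd made 12.7 CPM. Without WT3 and KO4, edgeR called 1 of 9 pancreas and 1 of 4 adipocyte markers higher. Neither list had a call when WT2 was left out as well. The part of these markers in the results above was not tested.

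Most calls over the 6 livers had the same sign in other mice of the series. WT3 and KO4 had been left out for resembling the other label, a resemblance shown in part on genes chosen at the other NC times. That choice favors such agreement in advance, so the shares below are a description and support nothing. At the other 5 NC times together, in 40 libraries, 367 of the 399 higher genes (92%) and 322 of the 363 lower genes (88.7%) had the same sign, against 49.5% and 50.5% of all genes with each sign. In 447 genes the call itself was made in both, which is 58.7% of the 762 and 20.4% of the 2187 called at the other times (14.1% of all genes, 7.72% higher and 6.35% lower), and 6 were called in opposite directions. Of the 8 cdHFD livers at ZT6, none lay nearer the other label in both gene sets. In these 8 livers 712 genes were called (4.58%, 2.39% higher and 2.19% lower). Of the 399 genes 275 (68.9%) and of the 363 genes 255 (70.2%) had the same sign, against 51.7% and 48.3% of all genes. There, 170 genes were called in the same direction (22.3% of the 762, 23.9% of the 712) and 29 in opposite directions. None of these mice is in the NC ZT6 groups. Without the 2 libraries of the other NC times that lay nearer the other label, 369 of 399 (92.5%) and 320 of 363 (88.2%) had the same sign there.

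Cry1 and Nr1d1 had the same direction in all 3 sets, with Cry1 at 3.16 here, 1.07 at the other NC times and 1.596 on cdHFD at ZT6, and Nr1d1 at -2.29, -1.07 and -1.26. Ntrk2, Insig2, Bhmt and Gys2 were called in the same direction in all 3 as well. The cholesterol synthesis list was higher at the other NC times, with 18 of 20 genes called and a median of 0.65, but had 3 called lower and none higher on cdHFD at ZT6. Fatty acid oxidation genes had 2 called higher and 15 lower at the other NC times, and 4 higher and 1 lower on cdHFD. Cyp7b1 was called higher at the other NC times (0.88 ± 0.16) and lower on cdHFD at ZT6 (-0.84 ± 0.16), and Acot1 lower at the other NC times (-1.001 ± 0.16) and higher on cdHFD (1.04 ± 0.12). Prodh, higher here, was called lower at the other NC times (-0.24 ± 0.08).

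**Figure D5:**
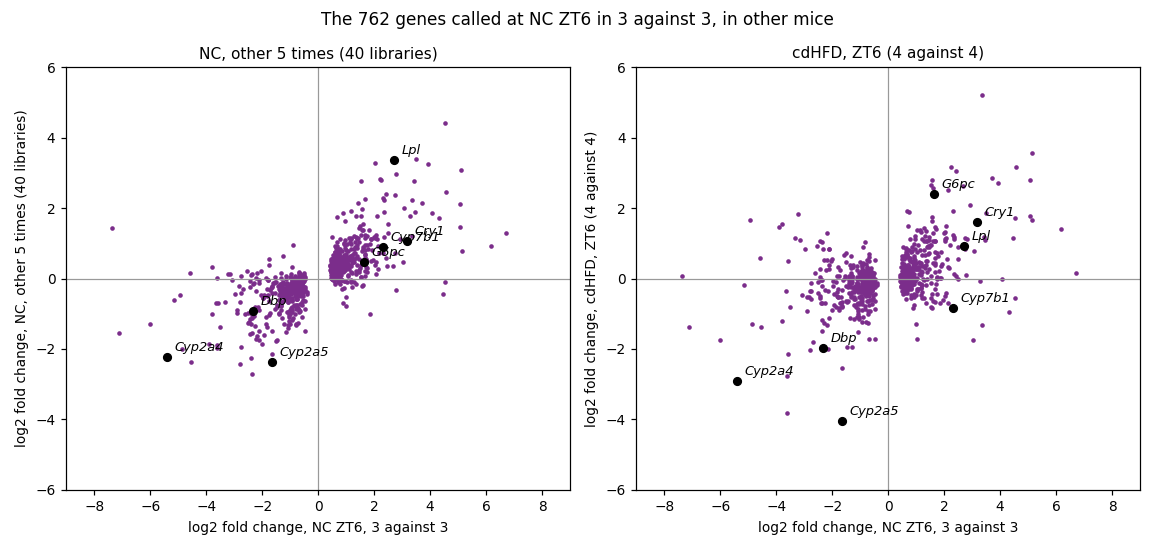
Log2 fold changes (Hep-Bmal1KO over Hep-Bmal1WT) over the 6 NC livers at ZT6 (horizontal) against those at the other 5 NC times and against those on cdHFD at ZT6 (vertical), for the genes called over the 6. Points in the upper right and lower left have the same sign in both. At the other NC times these were 92% of the higher and 88.7% of the lower genes, shares given as a description.

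Whether the genotype effect at ZT6 differed from that at the other times was tested as an interaction over the 48 NC libraries as labelled. It was called for 4 genes (0.0257%), Khk, Pcp4l1 and Gm35986 in the higher direction (0.0193%) and Anxa5 in the lower (0.00643%). Without WT2, WT4 or KO4, each left out alone, edgeR called 0 genes, and without WT1 it called 29. Khk, at chr5:30921436-30931248, did not pass the test at ZT6 and was lower in Hep-Bmal1KO livers at the other times (-0.52 ± 0.07, adjusted p = 1.03e-07), so the difference of its log2 fold changes was 0.84 ± 0.16 (adjusted p = 0.0144). At ZT2 its mean was 422 ± 20.7 CPM (SD, n = 4) in Hep-Bmal1WT and 270.0 ± 31.9 CPM (SD, n = 4) in Hep-Bmal1KO livers, and at ZT22 it was 495 ± 39.5 and 293 ± 28.96 CPM (SD, n = 4 each). At ZT6 the 3 controls and 3 knockouts had 320 ± 54.3 and 354 ± 32.2 CPM (SD, n = 3 each).

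Without the 4 NC libraries nearer the other label, 32 genes were called (0.206%), 22 higher (0.141%) and 10 lower (0.0643%). Those libraries were left out for that resemblance, so these calls are a description and support nothing. Cry1, one of the clock genes of the label check, is given as a description. Its gap was widest at ZT6, where the mean Hep-Bmal1WT level was lowest, at 5.28 ± 0.988 CPM against 47.1 ± 4.66 CPM (SD, n = 3 each), while at ZT22 it was 34.9 ± 4.64 against 44.1 ± 5.02 CPM (SD, n = 4 each). In the Hep-Bmal1KO livers Cry1 was nearly level over the day, between 41.03 and 49.2 CPM on average. The genotype difference was also called higher at ZT6 than at the other times for Prodh, Pdk1 and Pdxk, and lower for Cbs, Gss and Jade1. At ZT6 itself Pdk1 and Cbs did not pass over the libraries without WT3 and KO4. Their log2 fold changes there were 0.57 and 0.10 (adjusted p = 0.167 and 0.854, edgeR).

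The interaction with diet at ZT6, over the 16 libraries as labelled, was called for 5 genes (0.0322%). The genotype difference was higher on NC than on cdHFD for Khk, Fam47e, Aqp11 and Apol9a (0.0257%) and lower for Sox4 (0.00643%). Khk fell in Hep-Bmal1KO livers on cdHFD (-0.94 ± 0.08, adjusted p = 7.26e-08), and its difference between diets was 1.26 ± 0.18 (adjusted p = 0.00828). Without WT3 and KO4 the call was made for 238 genes (1.53%). The genotype difference was higher on NC for 129 (0.83%) and lower for 109 (0.701%). These 2 libraries were left out, on the NC side only, for resembling the other label. That choice favors such calls, so they are a description and support nothing. The genotype difference was higher on NC for Gstm6, Cyp7b1, Lpl, Cyp2d9 and Prodh, among others, and lower for Sgk1, Acot1, Foxa3, Jade1 and Alb. Gstm6 and Lpl were also genes of the label check. For Gstm6 the log2 fold change was 1.82 ± 0.14 on NC and 0.20 ± 0.10 on cdHFD, and for Acot1 it was -0.84 ± 0.16 on NC and 1.04 ± 0.12 on cdHFD.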

How the data were processed

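The authors sequenced livers by BRB-seq, mapped reads with STAR to the mm10 build, and counted them per gene (HTSeq, featureCounts and DESeq2 are named in the submitters' processing notes, without versions). The deposited values are raw counts for 55487 genes in 96 libraries. Whether molecular identifiers were collapsed, and whether counting used strand, is not given in the sources used here. Rows for reads not on a gene were left out of totals and tests.

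From these counts, genes with at least 100 counts over the 96 libraries (15548) were tested with edgeR 4.0.16 (R 4.3.3): TMM, quasi-likelihood fit and test, sex as a covariate, Benjamini-Hochberg adjustment over all genes tested. DESeq2 1.42.0 was an alternative. Fits used 8 libraries by label, the 6 without WT3 and KO4, 40 and 38 NC libraries of other times, 8 cdHFD libraries at ZT6, and, for interactions, the means per genotype and time or diet. Marker sums were compared by exact two-sided permutation (smallest p 0.029 for 4 against 4, 0.1 for 3 against 3). Each library is one mouse, so p-values refer to the spread between mice. Over the 6 libraries that spread leaves out WT3 and KO4, which resembled the other label, so it can be understated. In that fit edgeR also shared variance across genes, with 33.7 prior degrees of freedom, so p-values rest in part on other genes. Over the 8 libraries edgeR's quasi-likelihood test called 0 genes, with a smallest adjusted p of 0.307. Scripts were tested on simulated data. The depth, 5135157 to 9095237 counts, makes 1 count worth 0.110 to 0.195 CPM before scaling, so values under 1 CPM rest on a few counts.

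Named genes were the members of function lists, the 10 genes of smallest p per direction changed at least 2-fold without predicted genes, and the interaction calls. Some genes, which count in the totals and lists, are not reported here. The members and lists were chosen with earlier results of these data known. A list is given by counts and median with no test of its own. Coordinates are those of RefSeq's GRCm38.p6 annotation, which matched 14791 of the 15548 genes. Promoter sequences are not analysed here. Alternatives were the sex term, DESeq2, its size factors, filters, a 2-fold threshold, a fit over all NC libraries, single sexes, and leaving out each library. Leaving out libraries in the interactions and in the cdHFD comparison, and DESeq2 in the latter, were added after seeing the data.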

Additional observations from a re-analysis of the deposited data

Results flagged for a closer look

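In 42 of 258 groups of 4 libraries, a named gene had 1 library set apart from the other 3 of its label by Dixon's criterion at 95%, which chance meets in about 1 of 20 groups of genes not chosen on these values. The genes were called without WT3 and KO4, and this choice favors those 2 libraries. The libraries labelled KO4 and WT3 were the ones set apart in 22 and 14 of the 42, WT2 in 5 and KO2 in 1.

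WT3 was the highest of its label for the clock genes Npas2 at 17.13 CPM and Cry1 at 54.23 CPM. It was also highest for the metabolic genes Cyp7b1 at 205.3 CPM, Acaca at 85.35 CPM, Gstm2 at 371.6 CPM and Lpl at 539.8 CPM, for the male-biased Elovl3 at 581.8 CPM and Hsd3b5 at 331.7 CPM, and for Ntrk2 at 32.07 CPM, Grk5 at 31.12 CPM, Hectd2os at 704.4 CPM and Serpina12 at 473.5 CPM. It was lowest for Cpt1a at 138.2 CPM and Gys2 at 89.13 CPM.

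KO4 was the highest of its label for the clock genes Nr1d1 at 84.01 CPM, Nr1d2 at 64.47 CPM, Dbp at 146.6 CPM and Ciart at 7.778 CPM. The same held for the lipid genes Ces1e at 116.7 CPM, Fads2 at 521.7 CPM, Acot1 at 240.3 CPM and Fabp1 at 14910 CPM, and for Trib3 at 15.04 CPM, Mt2 at 81.93 CPM, Herpud1 at 584.4 CPM and Ccna2 at 5.704 CPM. It held as well for Cyp2a4 at 858.9 CPM, Cyp2a5 at 953.6 CPM, Sult2a1 at 325.8 CPM, Sult2a2 at 311.0 CPM and Cyp17a1 at 29.73 CPM. KO4 was lowest for Nfil3 at 8.816 CPM, Cyp8b1 at 90.06 CPM, Ugp2 at 342.2 CPM, Bhmt at 1458 CPM and Hectd2os at 81.76 CPM.

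WT2 was highest for Asns at 20.04 CPM, Sgk1 at 35.57 CPM, Ccnb1 at 17.16 CPM and Ccna2 at 11.02 CPM, and lowest for Itih3 at 336.8 CPM. KO2 was highest for the adipocyte gene Cfd, at 12.75 CPM.

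The genotype effect at ZT6 differed from that at the other NC times, by the interaction test over 48 libraries, for Khk by a log2 value of 0.84, Pcp4l1 by 2.28, Gm35986 by 2.55 and Anxa5 by -0.85. Between NC and cdHFD at ZT6, over 16 libraries, it differed for Khk by 1.26, Fam47e by 2.42, Aqp11 by 1.499, Apol9a by 0.96 and Sox4 by -2.31. Gm35986 is a predicted gene.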

How the results depend on the processing

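The 8 libraries by label gave 0 calls in edgeR's quasi-likelihood test, against 66 with DESeq2, 310 with no filter beyond 1 count and 103 in the males alone (44 higher, 59 lower). The females alone gave 0 calls. Leaving out single libraries gave 0 to 88, the most without KO4. The 762 calls over 6 libraries became 268 without a sex term, 418 with DESeq2, 418 with at least 10 counts in 3 libraries, 344 with a 2-fold threshold and 256 as a contrast within all NC libraries. They ranged from 411 (without WT2, 321 of them among the 762) to 892 (without WT1), and without KO2 there were 428. The filter changes edgeR's prior degrees of freedom, which over 6 libraries were 33.7 for 15548 genes and 9.42 for the 10984 genes left by the stricter filter. Over the 8 libraries they were 10.8 with the main filter and infinite with no filter beyond 1 count. The 310 calls therefore rest on variance fully shared across genes.

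The interaction of genotype with time, called for 4 genes, gave 32 without the 4 NC libraries nearer the other label, 70 with DESeq2, 2 without a sex term and 0 to 29 without single libraries, 0 without WT2, WT4 or KO4 and 29 without WT1. The interaction with diet, called for 5 genes, gave 238 without WT3 and KO4, 168 with DESeq2, 3 without a sex term and 1 (without WT4) to 27 (without WT3) without single libraries. The 32 and 238 calls came after leaving out libraries that resembled the other label, so these counts are a description. The 712 calls on cdHFD at ZT6 ranged from 433 to 965 without single libraries. Of the 129 genes checked singly over the 6 libraries, 59 stayed called without a sex term, 86 with DESeq2, 129 with DESeq2's size factors, 80 of 124 with the stricter filter, 46 within all NC libraries and 70 without WT2. None of the 129 changed sign under these alternatives, but Cyp4a12b and Mup3 of the sex-biased list did without WT2. Apart from the stated changes in counts, the causes were not tested.

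No paired analysis was possible because the replicate numbers only order the mice within a label and link no mouse of one genotype to a mouse of the other. Each genotype had 3 or 4 mice, with 1 library per sex on one side once WT3 and KO4 were left out, so changes of sex-biased genes rest on WT2 and KO1. Genes under 1 CPM in a group, such as Asns or Ciart, rest on a few counts.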

Other observations

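Transcription factors and stress genes that passed over the 6 libraries were mostly lower in Hep-Bmal1KO livers. Of 15 hepatocyte transcription factors 2 fell and none rose. Foxa3 measured 144, 163, 40.7 and 182 CPM in WT1 to WT4 and 70.7, 58.9, 44.8 and 164 CPM in KO1 to KO4 and fell by 1.42 ± 0.15 on the log2 scale (adjusted p = 1.47e-08, edgeR), and Cebpa fell by 1.07 ± 0.15. In both genes WT3 had the lowest level of all 8 libraries and KO4 the highest or nearly so. Klf9, Klf10 and Klf13 fell among 14 Kruppel-like factors, Herpud1 and Creld2 among 18 genes of the unfolded protein response, and in the heat shock list Hspb1 fell while Rbm3 rose. Of 14 glucocorticoid-responsive genes 5 fell and 1, Tsc22d3, rose. Mt1, a metallothionein, measured 241, 122, 18.2 and 823 CPM in WT1 to WT4 and 113, 14.5, 23.5 and 448 CPM in KO1 to KO4, a range of over 6-fold within WT1, WT2 and WT4, and fell by 2.44 ± 0.25 (adjusted p = 4.26e-09). Fkbp5, a chaperone of the glucocorticoid receptor, fell by 1.30 ± 0.20 (adjusted p = 1.52e-05). Klf13, Creld2, Rbm3 and Tsc22d3 were not called without WT2, nor Klf9 without KO1.

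Of the cell cycle genes that passed, some rose and some fell, with 4 of 20 higher and 3 lower. The replication licensing genes Mcm2, Mcm6 and Mcm7 and the inhibitor Cdkn1a rose, Mcm6 by 1.84 ± 0.29 (adjusted p = 2.24e-05), with 2.97, 6.76, 23.4 and 5.83 CPM in WT1 to WT4 and 20.9, 25.2, 10.6 and 13.8 CPM in KO1 to KO4. The cyclins Ccnb1, Ccna2 and Ccnd1 were called lower. Ccnb1 and Ccna2 were highest in WT2, at 17.2 and 11.02 CPM, and no cyclin was called without that library, nor were Mcm2 and Mcm7. Cdkn1a was not called without KO1. Lipoprotein genes included Lipc, hepatic lipase, which rose by 1.07 ± 0.15 (adjusted p = 2.24e-06), and Apoa4, Angptl8 and Fabp1, which fell, the first and the second not without WT2 and Fabp1 not without KO1. Among the secreted serpins, Serpina12 measured 40.7, 6.14, 473 and 3.11 CPM in WT1 to WT4 and 113, 342, 553 and 17.1 CPM in KO1 to KO4 and rose by 4.06 ± 0.53 (adjusted p = 1.07e-06), and Serpina6, the corticosteroid-binding globulin, fell by 1.11 ± 0.17. Serpina12 had 2.35 without WT2 and 6.201 without KO1, and Serpina6 had -0.53 without WT2 and was not called there. In 30 respiratory chain genes edgeR and DESeq2 called 0 over the 6 libraries, with 1 at an unadjusted p under 0.05 in edgeR, and in 36 ribosome biogenesis genes edgeR called Nop10 higher, though not without WT2.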
